A study of Mus musculus with 105 samples.

Results

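Rhox5, Rhox6 and Rhox9 are 3 genes of the reproductive homeobox (Rhox) cluster on the mouse X chromosome, and their expression was followed while embryonic stem cells left the naive state. The 3 genes were taken by name from the 52016 genes of the bulk count tables. The tables held 39 other genes named Rhox.

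The Rhox cluster encodes homeobox transcription factors that are best known from the testis, the epididymis, the ovary and the placenta. Its genes are methylated and silent in most somatic tissues, and several of them are switched on when DNA methylation is lost. Embryonic stem cells held by inhibitors of Mek and Gsk3 with LIF (2i/LIF) carry little DNA methylation, which the de novo methyltransferases lay down again once the inhibitors are withdrawn. Methylation itself was not measured in these samples.

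All cells came from the female line TX1072, a hybrid of the strains C57BL/6 (B6) and CAST/EiJ (Cast). Its B6 copy of Xist stands behind a doxycycline-responsive promoter, and rtTA was inserted at Rosa26. TXdXicB6 and TXdXicCast are 1 clone each of TX1072, so they share both insertions, and each lacks 773 kb around the Xist locus, on the B6 chromosome in TXdXicB6 and on the Cast chromosome in TXdXicCast. Xist, the RNA that silences the chromosome it is made from, could therefore come only from the Cast chromosome in TXdXicB6 and only from the B6 chromosome in TXdXicCast. Bulk RNA was sequenced in 3 replicates of each line at days 0, 1, 2, 3 and 4 after 2i/LIF withdrawal, and single TX1072 cells were captured on the same days from 1 culture a day.

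The 45 bulk libraries held between 16906263 and 57920260 counts, with medians of 30147369 for TX1072, 30503278 for TXdXicB6 and 31405553 for TXdXicCast. The 3 TXdXicCast libraries of day 0 were made from RNA that showed degradation and with a milder fragmentation, so day 4 is also set against day 1 for each of the 3 genes. Levels are given as counts per 1000000 counts of the library (CPM), and changes were tested with edgeR's quasi-likelihood test, in which a change was called at an adjusted p of 0.05. In bulk RNA, fewer cells that express a gene and less RNA per cell cannot be told apart.

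The cultures carried the markers that their labels imply. Summed over the 5 naive markers Nanog, Esrrb, Zfp42, Klf4 and Tfcp2l1, the level in TX1072 was 4510 CPM at day 0 and 405 CPM at day 4, and all 5 fell between these days in each of the 3 lines (edgeR). Over these days 59.7% of all genes were called in TX1072, 59.5% in TXdXicB6 and 69.6% in TXdXicCast. The 3 formative markers Fgf5, Otx2 and Pou3f1 summed to 38.7 CPM at day 0 and 253 CPM at day 4 in TX1072, and all 3 rose in each line. Markers of other cell types were also measured, and their part in the levels below was not tested. Beside the counts of these markers that follow, 30.0% of all genes tested rose and 29.6% fell from day 0 to day 4 in TX1072. In TX1072 the 6 trophoblast genes summed to 25.8 CPM at day 0 and 30 CPM at day 4. Of the 5 that were tested 2 rose (Hand1, which was at 0 CPM at day 0, and Ascl2) and Cdx2 fell. The 5 extraembryonic endoderm genes Gata4, Gata6, Sox7, Sox17 and Pdgfra summed to 2.24 and 8.6 CPM and all rose, with Pdgfra the most abundant at 0.878 and 3.64 CPM. In TXdXicB6 Gata4 and Sox7 rose over these days, Gata6 and Pdgfra were not called, and Sox17 fell by 1.54 (edgeR adjusted p = 0.0115). In TXdXicCast all but Sox17 rose, and Sox17 was not called (−0.64, adjusted p = 0.229). In TX1072 the 4 germ cell genes summed to 119 and 44.7 CPM, of which Dazl gave 86.8 and 3.08 CPM, and 1 rose (Ddx4, from 2.6 to 17.8 CPM) and 2 fell. The 4 fibroblast genes summed to 24.9 and 12.1 CPM, and 1 rose and 2 fell.

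In mm10 (GRCm38, GENCODE vM21) the 3 genes lie within 96.9 kb. Rhox5 occupies chrX:37804842-37808876 on the plus strand with 754 exonic bases, Rhox6 lies 18 kb further on at chrX:37826910-37829857 on the plus strand with 1010 exonic bases, and Rhox9 lies another 69.2 kb on at chrX:37899097-37901770 on the minus strand with 2488 exonic bases. The cluster is 65.7 Mb from Xist. Of the annotated genes with a unique symbol not named Rhox that start within 1 Mb, none overlaps any of the 3 genes. Overlap with other Rhox genes was not tested.

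Rhox6 and Rhox9 are close copies, and this bears on how well their reads can be told apart. Their coding sequences were identical at 617 of 681 bases (90.6%), with 161 bases in a row in common, whereas Rhox5 was identical to Rhox6 at 66.2% and to Rhox9 at 68.6% of the aligned bases. The stretch around the shared run is shown here from coding base 137 to 357 of both genes, 5′ to 3′ on the strand of the gene, with the 161 shared bases in capitals.
Rhox6, chrX:37827420-37827640, plus strand: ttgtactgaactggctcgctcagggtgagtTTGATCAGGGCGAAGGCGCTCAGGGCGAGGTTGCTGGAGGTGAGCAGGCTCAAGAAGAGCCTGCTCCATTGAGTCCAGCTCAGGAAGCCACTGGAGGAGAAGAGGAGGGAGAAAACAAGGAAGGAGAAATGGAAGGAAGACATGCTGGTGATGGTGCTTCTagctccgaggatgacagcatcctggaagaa
Rhox9, chrX:37901137-37901357, minus strand: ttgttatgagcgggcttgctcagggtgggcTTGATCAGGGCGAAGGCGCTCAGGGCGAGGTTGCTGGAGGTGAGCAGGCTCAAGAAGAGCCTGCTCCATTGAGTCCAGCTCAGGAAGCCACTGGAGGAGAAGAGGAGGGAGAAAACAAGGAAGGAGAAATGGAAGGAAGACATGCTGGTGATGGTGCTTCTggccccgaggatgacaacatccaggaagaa
Of all stretches of 50 bases in the annotated transcripts, 16.5% of those of Rhox6 were also found in Rhox9, and 6.28% of those of Rhox9 in Rhox6. At 100 bases the shares were 6.81% and 2.45%. Rhox5 shared no stretch of either length with any other gene. The deposited counts were of uniquely aligned reads, and the levels of Rhox6 and Rhox9 are uncertain to the extent that shared reads could not be placed, which was not tested.

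The alleles were told apart by bases at which B6 and Cast differ. No such base lay in an exon of Rhox5, 2 lay in exons of Rhox6 and 3 in exons of Rhox9, of which 1 in each gene was coding. The 31 bases around each coding one are shown on the strand of the gene, with the B6 base in a capital, and neither window occurs in the other gene.
Rhox6, chrX:37828454, plus strand: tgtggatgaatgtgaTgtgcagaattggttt
Rhox9, chrX:37901368, minus strand: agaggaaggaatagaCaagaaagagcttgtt
A bulk library held at most 18 allele-specific counts for Rhox5, so no allelic value is given for it.

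Rhox5, the founding member of the cluster and once named Pem, was high in naive cells, rose on the first day and then fell below its starting level. Its level in the 3 TX1072 libraries of day 0 was 170, 175 and 176 CPM. At day 1 it was 464, 494 and 416 CPM, and at day 4 it was 97.2, 124 and 116 CPM. The 3 days did not overlap. In edgeR the rise from day 0 to day 1 was 1.40 on the log2 scale (SE 0.13, adjusted p = 7.07e-08), or 2.64-fold, where 47.0% of the 18871 genes tested changed. From day 1 to day 4 Rhox5 fell by 2.03 (SE 0.13, adjusted p = 3.77e-10, 58.9% of genes called), or 4.07-fold. Day 4 lay 1.54-fold below day 0 (adjusted p = 0.000356, 59.7% of genes called).

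The days in between filled in a peak with a slow decline. The mean level of Rhox5 in TX1072 was 397 ± 68.5 CPM (SD, n = 3) at day 2 and 258 ± 26.8 CPM at day 3. Days 1 and 2 overlapped and were not called different in edgeR (log2 change −0.21, adjusted p = 0.218, 39.3% called), while all other neighbours in the order of levels were apart.

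Both deletion lines likewise had day 1 as the highest and day 4 as the lowest day for Rhox5. In TXdXicB6 the level of Rhox5 was 107, 89.3 and 81.4 CPM at day 0, 231, 170 and 313 CPM at day 1 and 55.3, 34.5 and 74.8 CPM at day 4. In TXdXicCast it was 154, 125 and 179 CPM at day 0, 227, 281 and 322 CPM at day 1 and 72.3, 91.7 and 76.3 CPM at day 4. Within each line these 3 days did not overlap. The edgeR log2 change from day 0 to day 1 was 1.36 in TXdXicB6 (SE 0.25, adjusted p = 5.35e-05, 45.8% of 19885 genes called) and 0.86 in TXdXicCast (SE 0.25, adjusted p = 0.0038, 58.7% called). From day 1 to day 4 Rhox5 fell by 2.12 in TXdXicB6 (adjusted p = 5.45e-08, 56.3% called) and by 1.79 in TXdXicCast (adjusted p = 6.89e-07, 59.2% called). Day 4 was below day 0 by 0.76 in TXdXicB6 (adjusted p = 0.0101, 59.5% called) and by 0.93 in TXdXicCast (adjusted p = 0.00159, 69.6% called). The call of day 4 against day 0 in TXdXicB6 was lost without replicate 1 or without replicate 2, with log2 changes of −0.62 (adjusted p = 0.158) and −0.54 (adjusted p = 0.0842).

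**Figure D1:**
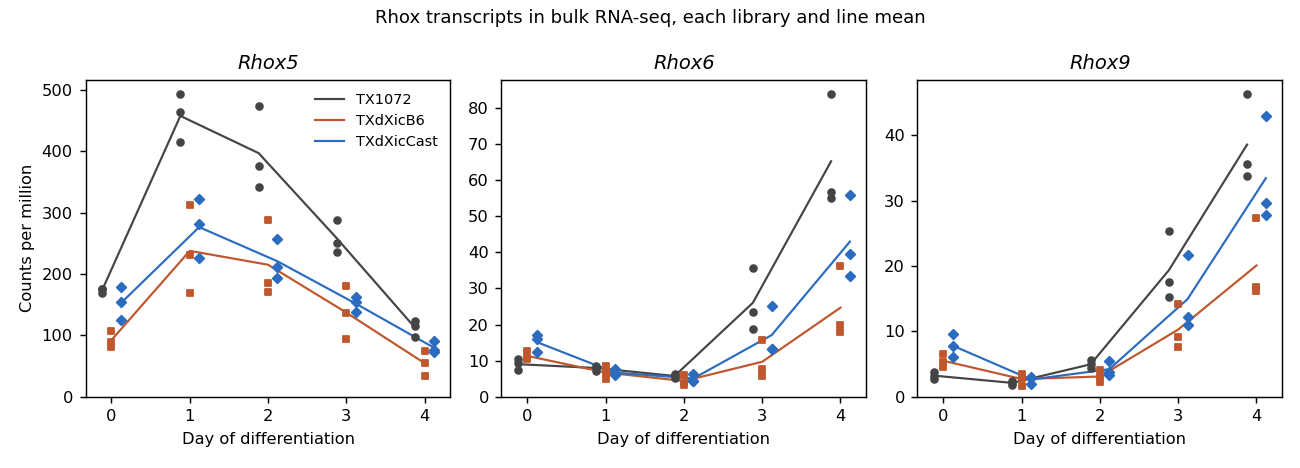
Level of Rhox5, Rhox6 and Rhox9 in CPM (vertical axes, a scale of its own in each panel) against the day of differentiation, with a point for each bulk library and a line through the mean of 3 libraries for TX1072, TXdXicB6 and TXdXicCast. Rhox5 peaked at day 1 in all 3 lines, at a mean of 458 CPM in TX1072, whereas by their means Rhox6 was lowest at day 2 and Rhox9 at day 1 in all 3 lines, and both were highest at day 4.

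Rhox6, known from the placenta and from germ cells, followed another course: it was low for 2 days and then rose. Its level in TX1072 was 10.4, 9.25 and 7.44 CPM at day 0 and 6.2, 5.9 and 5.17 CPM at day 2. At day 3 it was 35.7, 23.5 and 18.8 CPM, and at day 4 it was 83.7, 56.7 and 55.1 CPM. Day 2 lay below, and days 3 and 4 above, every library of day 0. In edgeR the log2 change from day 0 was −0.66 at day 2 (SE 0.22, adjusted p = 0.0154, 56.0% of genes called), 1.52 at day 3 (adjusted p = 6.61e-06, 56.1% called) and 2.84 at day 4 (SE 0.22, adjusted p = 2.32e-09), or 7.18-fold. The dip at day 2 was not called without replicate 2 (−0.67, adjusted p = 0.0784).

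Rhox6 dipped and rose in both deletion lines as well. In TXdXicB6 its level was 12.7, 10.4 and 10.8 CPM at day 0, 3.89, 3.18 and 6 CPM at day 2 and 20, 17.9 and 36.1 CPM at day 4. In TXdXicCast it was 16, 12.4 and 17 CPM at day 0, 4.39, 4.47 and 6.33 CPM at day 2 and 33.4, 39.5 and 55.9 CPM at day 4. Day 2 was lowest and day 4 highest in each line, with no overlap between days 0, 2 and 4. The edgeR log2 change from day 0 to day 2 was −1.38 in TXdXicB6 (adjusted p = 0.000945, 55.9% called) and −1.58 in TXdXicCast (adjusted p = 0.000139, 66.3% called). From day 0 to day 4 it was 1.12 in TXdXicB6 (SE 0.32, adjusted p = 0.00326) and 1.51 in TXdXicCast (SE 0.31, adjusted p = 0.000121). From day 1 to day 4, which leaves out the degraded libraries, Rhox6 rose by 1.87 in TXdXicB6 (adjusted p = 1.76e-05) and by 2.68 in TXdXicCast (adjusted p = 8.1e-08), beside 3.03 in TX1072 (adjusted p = 1.35e-09).

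Rhox9, the close copy of Rhox6, dipped at day 1 and then rose on each later day. Its level in TX1072 was 3.85, 3.11 and 2.75 CPM at day 0 and 2.45, 2.1 and 1.83 CPM at day 1. It then was 4.98, 5.56 and 4.36 CPM at day 2, 25.4, 17.5 and 15.2 CPM at day 3 and 46.3, 35.7 and 33.8 CPM at day 4. No day overlapped with its neighbour in the order of levels. The edgeR log2 change from day 0 was −0.62 at day 1 (SE 0.22, adjusted p = 0.0265), 0.60 at day 2 (adjusted p = 0.0193), 2.57 at day 3 (adjusted p = 5.39e-09) and 3.56 at day 4 (SE 0.21, adjusted p = 6.69e-11), or 11.8-fold. The dip at day 1 was not called without replicate 2 or 3, nor the step at day 2, with adjusted p from 0.0632 to 0.178 in these fits.

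Both deletion lines had the dip and the rise of Rhox9. In TXdXicB6 its level was 6.53, 4.61 and 5.39 CPM at day 0, 2.94, 1.68 and 3.52 CPM at day 1 and 16.2, 16.8 and 27.3 CPM at day 4. In TXdXicCast it was 7.78, 6.13 and 9.56 CPM at day 0, 3.04, 2.02 and 2.86 CPM at day 1 and 27.8, 29.6 and 43 CPM at day 4. Day 1 lay below and day 4 above every library of day 0 in both lines. In edgeR Rhox9 fell by 1.02 from day 0 to day 1 in TXdXicB6 (adjusted p = 0.0107) and by 1.56 in TXdXicCast (adjusted p = 0.000137). The fall in TXdXicB6 was not called without replicate 1 (−0.89) or replicate 2 (−0.85). From day 0 to day 4 Rhox9 rose by 1.86 in TXdXicB6 (SE 0.30, adjusted p = 5.01e-06) and by 2.09 in TXdXicCast (SE 0.29, adjusted p = 4.77e-07). The rise from day 1 to day 4 was 2.88 in TXdXicB6 (adjusted p = 1.07e-08) and 3.65 in TXdXicCast (adjusted p = 1.68e-10), beside 4.18 in TX1072 (adjusted p = 2.01e-11).

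The 3 genes came closer in abundance over the course. Per kilobase of exon, the mean level in TX1072 at day 1 was 607 ± 52.9 CPM per kb for Rhox5, 7.88 ± 0.70 for Rhox6 and 0.86 ± 0.13 for Rhox9 (SD, n = 3). At day 4 it was 149 ± 18.4 CPM per kb for Rhox5, 64.5 ± 15.9 for Rhox6 and 15.5 ± 2.71 for Rhox9. The order of the genes was the same on both days. Over the 15 means of line and day, each line centred on its own mean, Pearson's r of log2 CPM was 0.92 between Rhox6 and Rhox9, −0.85 between Rhox5 and Rhox6 and −0.81 between Rhox5 and Rhox9. These points share 3 lines and 1 time course, and the values are a description.

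Over the same 15 means, the 5 of 11874 genes whose course was most like that of Rhox5 were Gm14058 (r = 0.985), Platr5 (0.983), Dppa4 (0.97), Ecsit (0.966) and Smim40 (0.966). For Rhox6 they were Lgals1 (r = 0.986), Arhgap21 (0.981), Kif1b (0.979), Ppfibp1 (0.976) and Mtmr4 (0.974). For Rhox9 they were App (r = 0.991), Kank1 (0.984), Asl (0.979), Fosl2 (0.977) and Ralgds (0.977). Dppa4 encodes a chromatin protein of pluripotent cells and App the amyloid precursor protein, and the 3 sets had no gene in common.

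TXdXicCast and TXdXicB6 were compared on each day, since the chromosome that can be silenced differs between them. At day 0 the level of Rhox5 was higher in TXdXicCast, by 0.72 on the log2 scale (SE 0.25, edgeR adjusted p = 0.0392), on the day of the degraded RNA, when 19.7% of genes were called. It was not called without replicate 1 (0.88, adjusted p = 0.113) or without replicate 3 (0.49, adjusted p = 0.237). At days 1, 2 and 3 the log2 difference in Rhox5 lay between 0.04 and 0.22 and was not called, where 0.402%, 0.372% and 1.29% of genes were called. At day 4 the difference was 0.55 for Rhox5 (SE 0.25, adjusted p = 0.219), 0.80 for Rhox6 (SE 0.31, adjusted p = 0.131) and 0.74 for Rhox9 (SE 0.28, adjusted p = 0.127), where 5.81% of genes were called, and none of the 3 was. The libraries of Rhox5 and Rhox6 overlapped between the lines at day 4, and those of Rhox9 lay apart, at 27.3 CPM in the highest of TXdXicB6 and 27.8 CPM in the lowest of TXdXicCast.

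With the replicate number as a block, these differences at day 4 were called. Replicates were differentiated on different days, but the sources used here do not state that equal numbers of the lines shared a day. The blocked edgeR values were 0.60 for Rhox5 (adjusted p = 0.0481), 0.84 for Rhox6 (adjusted p = 0.0022) and 0.75 for Rhox9 (adjusted p = 0.00154), while the number of genes called went from 1156 to 1771. TXdXicCast was the higher line in each of the 3 same-numbered pairs for each gene. For Rhox5 the difference without the block ranged from 0.19 to 0.88 when a replicate was left out. Markers differed between the same libraries of day 4. In edgeR without the block TXdXicCast was higher in 2 of the 6 trophoblast genes (Gata3 by 0.76, adjusted p = 0.0115, and Plet1 by 0.64, adjusted p = 0.0331) and in 1 of the 5 extraembryonic endoderm genes (Gata6 by 2.37, adjusted p = 0.0121). It was also higher in 2 of the 4 fibroblast genes (Col1a1 by 1.38, adjusted p = 0.00432, and Col1a2 2.3-fold, adjusted p = 0.00349) and in none of the 4 germ cell genes. Summed over the lists, TXdXicB6 and TXdXicCast were at 26.6 and 42.5 CPM for trophoblast, 6.78 and 9.75 CPM for extraembryonic endoderm and 17.7 and 24.4 CPM for fibroblast genes. Of the naive markers Tfcp2l1 was higher in TXdXicCast by 0.54 (adjusted p = 0.0373), and Otx2 of the formative markers and Dnmt3b of the methylation writers were lower, with log2 differences of −0.55 (adjusted p = 0.013) and −0.70 (adjusted p = 0.0119). The part of these differences in the levels of the 3 Rhox genes was not tested. Blocked values were also called where the unblocked ones were not for Rhox6 at day 3 (0.86, adjusted p = 0.00761) and for Rhox9 at day 0 (0.47, adjusted p = 0.0387). The change from day 0 to day 4 itself was not called different between the lines for any of the 3 genes, with log2 differences of −0.17 for Rhox5 (SE 0.35), 0.39 for Rhox6 (SE 0.44) and 0.23 for Rhox9 (SE 0.41), where 14.9% of genes were called (edgeR). From day 1 to day 4 the differences were 0.33 (SE 0.35), 0.81 (SE 0.45) and 0.77 (SE 0.44), where 0.759% of genes were called, and again none was.

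Within the lines the block also turned calls on the smaller steps. Rhox5 was called higher at day 3 than at day 0 in TXdXicB6 with the block (0.51, edgeR adjusted p = 0.0218) and not without it (0.57, adjusted p = 0.0503), where 57.9% of genes were called. It was likewise called higher at day 2 than at day 0 in TXdXicCast (0.54, adjusted p = 0.0132 against 0.056), and lower at day 3 than at day 2 in TXdXicB6 (−0.65, adjusted p = 0.0102 against 0.0509, 25.3% of genes called) and in TXdXicCast (−0.52, adjusted p = 0.0361 against 0.104, 27.3% called). Rhox6 was called lower at day 1 than at day 0 in TXdXicB6 (−0.81, adjusted p = 0.000754 against 0.0606), and lower at day 2 than at day 1 in TX1072 (−0.47, adjusted p = 0.0123 against 0.0961) and in TXdXicB6 (−0.63, adjusted p = 0.0132 against 0.168, 32.7% called). Rhox9 was called higher at day 2 than at day 1 in TXdXicCast (0.65, adjusted p = 0.00547 against 0.111, 35.7% called).

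The rest of the cluster did not share 1 course. Of the 39 other Rhox genes, 5 passed the filter on low counts in TX1072 and 7 in the deletion lines, so the others are not described. In TX1072 3 of the 5 rose from day 0 to day 1 and none fell (median log2 change 0.89, beside −0.01 over all genes, of which 23.5% rose and 23.4% fell), and all 5 fell from day 1 to day 4 (median −4.32, beside 0.00 over all genes, of which 30.6% rose and 28.3% fell). Rhox1, the most abundant of them per length, was at 6.95, 5.92 and 0.36 CPM on days 0, 1 and 4. The pseudogene Rhox2-ps was at 0.09, 1.78 and 0.09 CPM on these days and the pseudogene Rhox7-ps2 at 0.05, 1.26 and 0.05 CPM, both with their peak at day 1 as for Rhox5. Rhox13 was highest at days 2 and 3, with 2.01 and 2.22 CPM against 0.48 at day 0 and 0.49 at day 4. The cluster holds many tandem copies, so the counts of these genes are uncertain. None of the others tested rose from day 0 to day 4 in any line.

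Of the 5 listed genes that write DNA methylation, the 3 of the de novo machinery, Dnmt3a, Dnmt3b and Dnmt3l, rose from day 0 to day 1 in each of the 3 lines. The median log2 change of the 5 in TX1072 was 1.79, beside −0.01 over all genes, of which 23.5% rose and 23.4% fell. Dnmt3l, the cofactor of the de novo methyltransferases, was at 35.9, 1460 and 240 CPM on days 0, 1 and 4 in TX1072 (log2 change 5.34 at day 1, edgeR adjusted p = 2.65e-11). Dnmt3b, a de novo methyltransferase, was at 185, 638, 1710 and 542 CPM on days 0, 1, 2 and 4 (log2 change 1.79 at day 1, adjusted p = 3.67e-09). Uhrf1, which guides maintenance methylation, had a log2 change of −0.16 at day 1 in TX1072 (adjusted p = 0.272) and fell by 1.59 to day 4 (adjusted p = 1.32e-09). In the deletion lines it fell at day 1 already, by 0.47 in TXdXicB6 (adjusted p = 0.000273) and by 0.81 in TXdXicCast (adjusted p = 9.26e-08). Dnmt1, the maintenance methyltransferase, had log2 changes of 0.15 at day 1 (adjusted p = 0.304) and −0.26 at day 4 in TX1072 (adjusted p = 0.0599). It fell from day 0 to day 4 by 0.68 in TXdXicB6 (adjusted p = 7.9e-07) and by 1.18 in TXdXicCast (adjusted p = 2.61e-11), and to day 1 by 0.32 and 0.71 (adjusted p = 0.00884 and 5.4e-07). The values of TXdXicCast from day 0 rest on its degraded libraries, in which Dnmt1 was 0.42 above TXdXicB6 (adjusted p = 0.00269) and Uhrf1 0.33 above it (adjusted p = 0.0175). From day 1 to day 4, without these libraries, Dnmt1 fell in each line, by 0.41 in TX1072 (adjusted p = 0.00505), by 0.37 in TXdXicB6 (adjusted p = 0.00208) and by 0.47 in TXdXicCast (adjusted p = 0.000148).

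Of the 6 genes that oppose methylation, 1 rose and 4 fell from day 0 to day 4 in TX1072 (median −1.33, beside −0.04 over all genes, of which 30.0% rose and 29.6% fell). Prdm14, a repressor of the de novo methyltransferases in naive cells, was at 168, 12.8 and 4.37 CPM on days 0, 1 and 4. Dppa3, which hinders maintenance methylation, went from 47.9 to 3.16 CPM at day 1 and was at 38.5 CPM again at day 3. Tet1, an enzyme of demethylation, fell by 1.27 to day 4 (edgeR adjusted p = 3.37e-05), and Tdg, a glycosylase of the same route, rose by 0.63 (adjusted p = 3.39e-05).

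Germline genes that are known to depend on DNA methylation split at day 4. Of the 16 listed, all of which were tested, 11 rose and 1 fell from day 0 to day 1 in TX1072 (median 1.59, beside −0.01 over all genes, of which 23.5% rose and 23.4% fell), and 6 rose and 9 fell from day 0 to day 4 (median −1.09, beside −0.04 over all genes, of which 30.0% rose and 29.6% fell). Tex19.1, a germline gene also active in stem cells, had a course close to that of Rhox5, with 105, 284 and 35.2 CPM on days 0, 1 and 4. Hormad1, a gene of meiosis, was at 38.8, 95.1 and 3.81 CPM on these days. Dazl, a germ cell RNA-binding protein, was at 86.8, 71.7 and 3.08 CPM, and Rpl10l, a retrogene of ribosomal protein L10, at 66.1, 72.4 and 7.67 CPM. These are the 4 with the highest level per length, and none of them rose to day 4, while the 6 that did were Ddx4, Mael, Tdrd1, Taf7l, Sycp3 and Slc25a31.

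**Figure D2:**
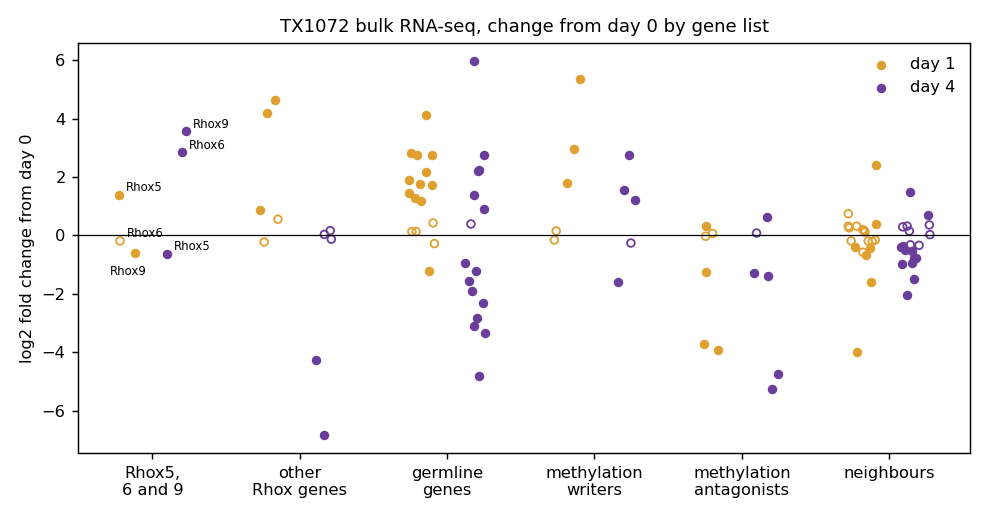
The log2 fold change from day 0 in TX1072 bulk libraries (vertical axis) for Rhox5, Rhox6 and Rhox9 and for the tested genes of 5 lists, at day 1 and at day 4, with a filled point for a change called by edgeR and an open point otherwise. Points are spread sideways for legibility, and the lowest point of the other Rhox genes, Rhox2a, was at 0 CPM at day 4, so its place depends on the prior count. Rhox6 and Rhox9 stood above all tested other Rhox genes at day 4, with log2 changes of 2.84 and 3.56.

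Genes around the cluster that are not Rhox genes did not move as one. Of the 39 in the tables within 1 Mb, 19 were tested, and from day 0 to day 4 in TX1072 2 rose and 10 fell (median −0.35, beside −0.20 over all X-linked genes and −0.04 over all genes, of which 30.0% rose and 29.6% fell). The 4 with the highest level per length were Rpl39, Cul4b, Ndufa1 and Mcts1. From day 0 to day 4 Rpl39, a ribosomal protein gene, fell by 0.98 (edgeR adjusted p = 0.00232), and Cul4b, a ubiquitin ligase scaffold, rose by 0.69 (adjusted p = 0.00387). Ndufa1, a subunit of respiratory complex I, fell by 0.40 (adjusted p = 0.0197), and Mcts1 had a log2 change of 0.36 (adjusted p = 0.196).

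The Cast copy of Rhox6 gave most of the allele-specific counts in naive cells of all 3 lines, and the B6 share was higher at day 4. In TX1072 at day 0 the 3 libraries held 6, 1 and 9 B6 counts beside 87, 45 and 43 Cast counts, which is a B6 share of 6.45%, 2.17% and 17.3%. At day 4 they held 301, 186 and 212 B6 counts beside 241, 199 and 190 Cast counts, which is 55.5%, 48.3% and 52.7%. The 2 days did not overlap. In the edgeR fit of both alleles, log2 of B6 over Cast was −3.42 at day 0 (SE 0.31, adjusted p = 1.01e-17, where 38.7% of 15724 genes were called), and 15 of the 541 X-linked genes tested were lower. At day 4 it was 0.14 (SE 0.12, adjusted p = 0.407, 31.2% called). The change of 3.56 (SE 0.34, adjusted p = 5.73e-16, 12.9% called) was exceeded by 5 of the X-linked genes. Without replicate 3, the library with the highest B6 share at day 0, the ratio of day 0 was −4.19 and the change 4.32, and both were called in each fit that left out a replicate.

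The B6 share of Rhox6 was also low at day 0 in the deletion lines and higher at day 4. In TXdXicB6 the B6 share of Rhox6 was 23.8%, 13.4% and 16.8% at day 0, over 21, 112 and 101 allele-specific counts, and 54.5%, 52% and 53.8% at day 4. In TXdXicCast it was 10.8%, 15.2% and 10.9% at day 0 and 33.2%, 40% and 39.3% at day 4. All libraries of day 4 lay above those of day 0 in their line. The first of the TXdXicB6 libraries of day 0 had the fewest allele-specific counts of all bulk libraries, and without replicate 1 the log2 ratio of this line at day 0 was −2.49 and its change to day 4 was 2.66, both called. The log2 ratio of B6 over Cast was −2.40 at day 0 in TXdXicB6 (edgeR adjusted p = 9.13e-15, 29.2% of 19015 genes called) and −2.84 in TXdXicCast (adjusted p = 1.03e-29, 36.7% called). It changed to day 4 by 2.60 in TXdXicB6 (SE 0.30, adjusted p = 3.54e-13, 12.8% called) and by 2.09 in TXdXicCast (SE 0.23, adjusted p = 6.22e-14, 17.0% called). Over X-linked genes the median of this change was 1.22 in TXdXicB6 and −0.68 in TXdXicCast, and 77 and 17 of the 642 tested exceeded Rhox6. From day 1 to day 4, which leaves out the degraded libraries, the ratio of Rhox6 changed by 2.07 in TXdXicB6 (SE 0.28, adjusted p = 5.8e-10, 12.7% called), beside 1.51 in TX1072 (SE 0.28, adjusted p = 1.03e-05, 11.6% called). In TXdXicCast the change over these days was 0.65 and was not called (SE 0.28, adjusted p = 0.125, 12.2% called).

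Both copies of Rhox6 had more counts at day 4 than at day 0 in TX1072. In CPM of the allele-specific counts of a library alone, the B6 copy was at 1.02 ± 0.98 at day 0 and 39.3 ± 12.4 at day 4, and the Cast copy at 9.82 ± 1.69 and 35.3 ± 6.8 (SD, n = 3). In TXdXicB6 the B6 copy went from 2.49 ± 1.13 to 15.2 ± 7.49 and the Cast copy from 10.9 ± 1.25 to 13.2 ± 6.31, and in TXdXicCast the B6 copy went from 1.9 ± 0.49 to 21.6 ± 8.38 and the Cast copy from 13.5 ± 2.46 to 35 ± 9.81. In each line the B6 copy did not overlap between day 0 and day 4. The Cast copy of TXdXicB6, which lies on the chromosome that makes Xist there, overlapped between these days.

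The lines differed in the allelic ratio of Rhox6 at day 4, with the higher B6 share in the line whose B6 chromosome lacks Xist. The B6 shares of day 4 did not overlap between the lines, and the log2 ratio was lower in TXdXicCast than in TXdXicB6 by 0.95 (SE 0.18, edgeR adjusted p = 1.92e-05), where 3.34% of all genes and 65.6% of X-linked genes were called and the median over X-linked genes was −2.01. At day 0 the difference was −0.44 (SE 0.38, adjusted p = 0.86, 1.47% called). The change from day 1 to day 4 differed by −1.41 (SE 0.41, adjusted p = 0.0432, 1.91% called), a call that was lost with DESeq2 (adjusted p = 0.22), without replicate 1 (−1.07, adjusted p = 0.645) and without replicate 3 (−1.52, adjusted p = 0.187), and the change from day 0 to day 4 by −0.51 (SE 0.41, adjusted p = 0.876, 2.15% called). The exact two-sided permutation test of 3 against 3 libraries, on the B6 share at day 4, gave p = 0.1, the smallest it can give, and 0.262 after Benjamini-Hochberg adjustment over 34 such tests.

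Over all X-linked counts but those of Xist and its antisense transcript Tsix, the B6 share is the background for these values. It was 51.1% at day 0 and 49.6% at day 4 in TX1072, 50.3% and 68.1% in TXdXicB6, and 50% and 38.3% in TXdXicCast. At day 4 the B6 share of Rhox6, with means of 53.4 ± 1.31% in TXdXicB6 and 37.5 ± 3.75% in TXdXicCast (SD, n = 3), lay below the share over the X in the first line and near it in the other.

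**Figure D3:**
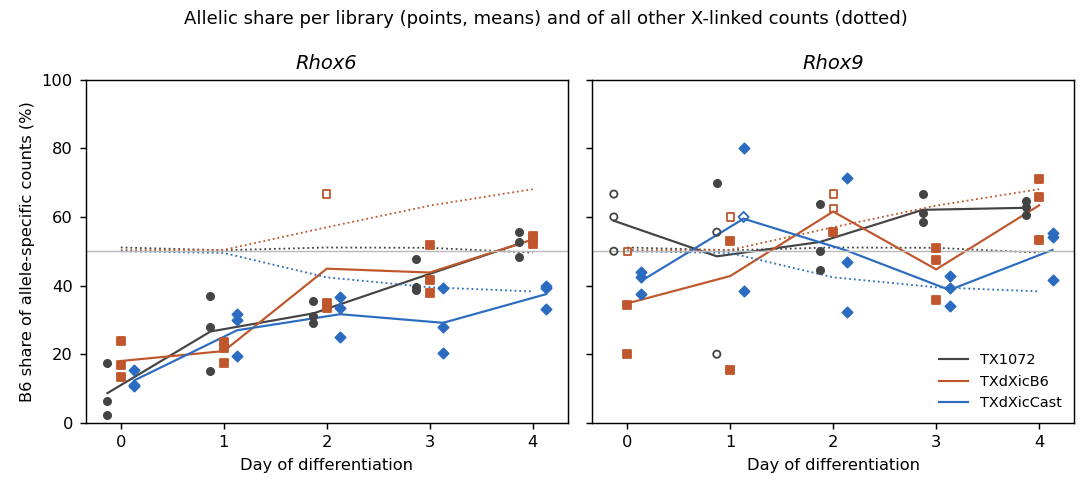
Share of allele-specific counts from B6, in percent, for Rhox6 and Rhox9 against the day of differentiation. Each bulk library is a point, open where it held fewer than 10 allele-specific counts. A solid line runs through the mean of 3 libraries, and a dotted line shows all X-linked counts but those of Xist and Tsix. The share of Rhox6 was at most 23.8% at day 0, a value that rests on 21 counts, and lay between 33.2% and 55.5% at day 4.

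Rhox9 had few allele-specific counts in the early days, with 4, 5 and 6 a library in TX1072 at day 0, 4, 20 and 32 in TXdXicB6 and 32, 33 and 89 in TXdXicCast. At day 0 its log2 ratio of B6 over Cast was −1.19 in TXdXicB6 (SE 0.47, edgeR adjusted p = 0.0435) and −0.46 in TXdXicCast (SE 0.30, adjusted p = 0.238). The call in TXdXicB6 was lost with DESeq2 (adjusted p = 0.061), without replicate 2 (−0.80, adjusted p = 0.374) and without replicate 3 (−1.54, adjusted p = 0.104). At day 4 the TX1072 libraries held 106, 71 and 89 B6 counts beside 58, 42 and 58 Cast counts, a B6 share of 64.6%, 62.8% and 60.5%. B6 gave the larger count in all 3. The log2 ratio of B6 over Cast was 0.75 at day 3 (SE 0.25, edgeR adjusted p = 0.0122, 31.1% of genes called) and 0.75 at day 4 (SE 0.19, adjusted p = 0.000688). The call of day 3 was lost with DESeq2 (adjusted p = 0.0692) and without replicate 1 (0.55, adjusted p = 0.273). In the deletion lines the ratio at day 3 was −0.30 in TXdXicB6 (SE 0.26, adjusted p = 0.425, 33.7% called) and −0.63 in TXdXicCast (SE 0.25, adjusted p = 0.0453, 29.3% called), and the latter call was lost with DESeq2 (−0.65, adjusted p = 0.126) and without any 1 of the replicates. At day 4 the B6 share of Rhox9 was 65.8%, 71.1% and 53.2% in TXdXicB6 and 55.4%, 54.1% and 41.7% in TXdXicCast, with ratios of 0.75 (SE 0.22, adjusted p = 0.00401, 31.8% called) and 0.00 (SE 0.19, 30.7% called). The call in TXdXicB6 was lost without replicate 1 (0.66, adjusted p = 0.0559) or replicate 2 (0.54, adjusted p = 0.116). The median ratio of X-linked genes at day 4 was 1.29 in TXdXicB6, where 483 of the 642 tested were higher than Rhox9, and −0.72 in TXdXicCast. From day 0 to day 4 the ratio of Rhox9 rose by 1.94 in TXdXicB6 (SE 0.52, edgeR adjusted p = 0.00314), a call lost without replicate 2 (1.342, adjusted p = 0.217). Its change was 0.46 in TXdXicCast (SE 0.35, adjusted p = 0.457). Over X-linked genes the median change was 1.22 in TXdXicB6 and −0.68 in TXdXicCast, and 151 and 67 of the 642 exceeded Rhox9. The shares of the lines overlapped at day 4, and the difference between them was −0.75 (SE 0.29, adjusted p = 0.202), not called.

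Most testable neighbours had smaller allelic differences than Rhox6 in naive cells, and 1 pseudogene a larger one. Of 6 neighbours with enough allele-specific counts in TX1072, none was higher on B6 and 2 were lower on B6 at day 0, namely Nkap, by 0.18 (SE 0.07, edgeR adjusted p = 0.0207), and the pseudogene Dppa3-ps, which had no B6 count in any TX1072 library. In that comparison 38.7% of all genes tested were called. In the deletion lines 8 neighbours were tested and none was higher on B6 at day 0, where 29.2% of all genes were called in TXdXicB6 and 36.7% in TXdXicCast. Lower on B6 in TXdXicB6 were Dppa3-ps and Cul4b, the latter by 0.24 (SE 0.07, adjusted p = 0.00185). In TXdXicCast they were Dppa3-ps, Cul4b, by 0.50 (SE 0.06, adjusted p = 8.3e-13), Lamp2, by 0.33 (SE 0.10, adjusted p = 0.00358), and Nkap, by 0.19 (SE 0.06, adjusted p = 0.0116). For none of the 6 was the change from day 0 to day 4 called in TX1072, where 12.9% of all genes were called. In TXdXicB6 the ratio rose for 3 of the 8 (Cul4b by 1.12, Lamp2 by 1.09 and Nkap by 0.44, median of the 8 genes 0.88), and in TXdXicCast it fell for 2 of the 8 (Zbtb33 by 1.42 and Nkap by 0.35, median −0.46). Over all genes this change was called for 12.8% in TXdXicB6 and 17.0% in TXdXicCast. Lamp2 and Cul4b, on the far side of Rhox9, had log2 ratios of 0.00 (SE 0.09) and 0.03 (SE 0.06) at day 0 and −0.02 (SE 0.09) and −0.08 (SE 0.05) at day 4 in TX1072. Counts of the 2 alleles can differ where reads with 1 of the bases align less well, and this was not tested.

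**Figure D4:**
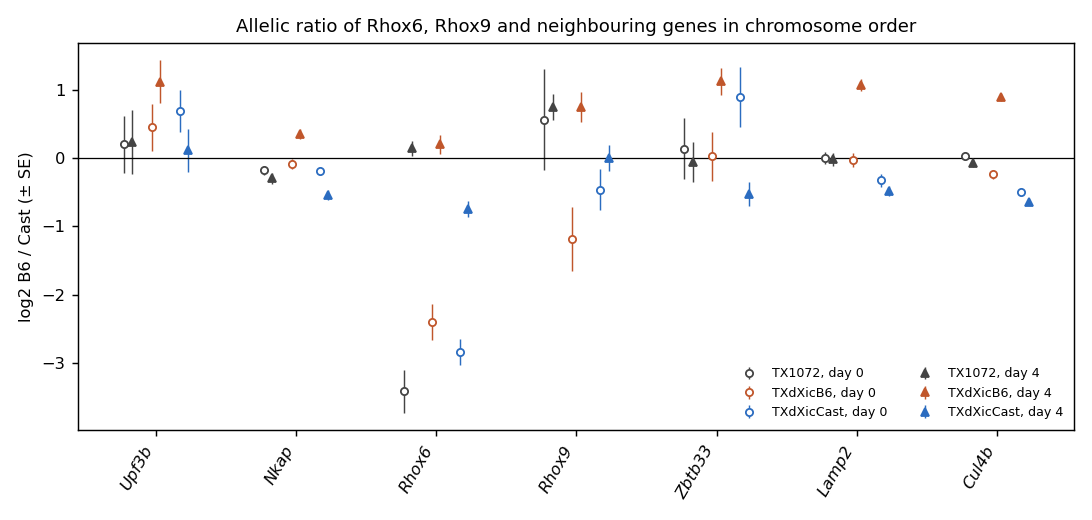
The log2 ratio of B6 over Cast counts with its standard error (vertical axis) for Rhox6, Rhox9 and 5 neighbouring genes in the order of the chromosome, at day 0 (open circles) and day 4 (triangles) in the 3 lines. Dppa3-ps, with no B6 count in any TX1072 library, is not drawn, and Rhox9 at day 0 rests on few counts. At day 0 Rhox6 was at −3.42, −2.40 and −2.84 in TX1072, TXdXicB6 and TXdXicCast, away from the neighbours drawn, and at day 4 it had moved toward them in each line.

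Single TX1072 cells were read at 2000 capture sites, of which the study kept 1472 cells, 277, 325, 341, 257 and 272 at days 0 to 4. A kept cell held a median of 132847 UMIs, counts of distinct captured molecules. With 1 culture a day there is no test between days, and all intervals cover counting error only. Of the sites listed as empty, 54 held a median of 10047 UMIs, and a Rhox5 UMI was seen in 77.8% of them, a Rhox6 UMI in 18.5% and a Rhox9 UMI in 11.1%, so a single UMI is no sign of expression. The list of empty sites used here did not cover 13 of the 2000 sites.

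Most cells held at least 10 Rhox5 UMIs on each day up to day 3, and a smaller part of them did at day 4. Its level over days 0 to 4 was 877, 2230, 1830, 1180 and 308 CPM (exact 95% Poisson interval on day 1 from 2220 to 2250 CPM and on day 4 from 303 to 313 CPM). The median cell held 79, 284, 242, 71 and 2 Rhox5 UMIs on these days. The share of cells with at least 10 Rhox5 UMIs was 82.7% at day 0 (exact 95% interval from 77.7% to 86.9%). It was 96.0% at day 1 (from 93.3% to 97.9%), 83.6% at day 2 (from 79.2% to 87.3%) and 68.1% at day 3 (from 62.0% to 73.7%), and had come down to 28.3% by day 4 (from 23.0% to 34.1%). As many UMIs were held by 6 of the 10 empty sites at day 0, 5 of 7 at day 1, 3 of 4 at day 2, 6 of 14 at day 3 and 1 of 19 at day 4 (5.26%), so on days 0 to 3 this count alone does not mark expression. No empty site held 100 or more Rhox5 UMIs, which 124, 245, 221, 118 and 39 cells did on days 0 to 4. The 39 cells of day 4, of 272, had 86.5% of all Rhox5 UMIs.

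The UMIs of Rhox6 and Rhox9 came from few cells. The level of Rhox6 was 60.2, 30.9, 25.2, 57.6 and 73.2 CPM at days 0 to 4, and that of Rhox9 was 8.05, 9.0, 21.5, 36.5 and 54.0 CPM. Without the 1 cell with the most UMIs of the gene, the level of Rhox6 was 55.8 CPM at day 0 and 55.2 CPM at day 4, and that of Rhox9 was 7.44 and 41.0 CPM. Day 4 was 7.18-fold above day 0 for Rhox6 in the bulk libraries of TX1072, and its single-cell levels of these days were much closer to each other. The share of cells with at least 10 Rhox6 UMIs went from 22.4% at day 0 (exact 95% interval 17.6% to 27.8%) to 8.09% at day 4 (5.14% to 12%). As many Rhox6 UMIs were held by 0 of the 10 empty sites at day 0 and by 1 of the 19 at day 4 (5.26%). For Rhox9 the share was 4.69% at day 0 (2.52% to 7.89%) and 8.09% at day 4 (5.14% to 12%), beside 0 of 10 and 1 of 19 empty sites (5.26%). Cells with 100 or more Rhox6 UMIs numbered 3, 1, 2, 7 and 11 on these days, and the 11 cells of day 4 held 87.1% of that day's Rhox6 UMIs.

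The concentration in few cells was of the same kind for all 3 genes at day 4, and least for Rhox5. The tenth of cells with the most UMIs held 67.0% of all Rhox6 UMIs at day 0 and 97.3% at day 4, and for Rhox9 86.0% and 98.2%. For Rhox5 it held 31.3% at day 0 and 72.9% at day 4. The 11 cells rich in Rhox6 at day 4 came from 8 of the 10 columns of the capture plate. Among the sites that the study removed, 5 more at day 4 held 100 or more Rhox6 UMIs, 2 of which it had marked as holding several cells.

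**Figure D5:**
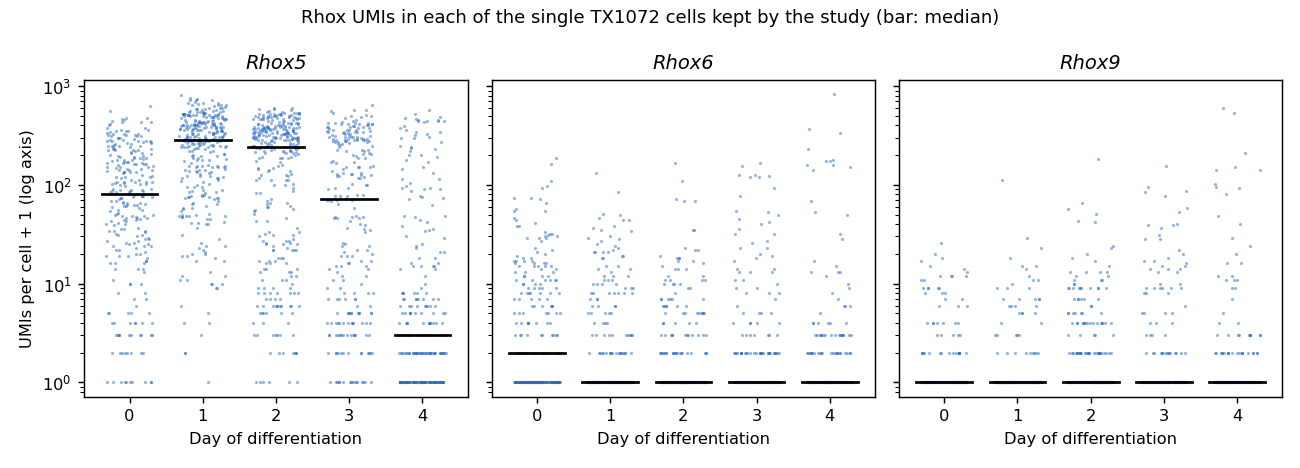
UMIs of Rhox5, Rhox6 and Rhox9 in each of the 1472 kept TX1072 cells (vertical log axis, UMIs plus 1) by day of differentiation, with a black bar at the median of the day. For Rhox5 the median went from 284 UMIs at day 1 to 2 at day 4, while for Rhox6 the highest cells went up to 828 UMIs at day 4 over a median of 0.

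The cells rich in Rhox6 at day 4 were largely those rich in Rhox9. The 10 cells with the most Rhox6 UMIs held between 152 and 828 of them, 82.9% of the day's total, and 8 of them were also among the 10 with the most Rhox9 UMIs. At day 3, 9 of the 10 were shared. Over all cells of a day, Spearman's rho of the CPM of Rhox6 and Rhox9 was 0.42, 0.24, 0.25, 0.52 and 0.59 at days 0 to 4, a description over 277, 325, 341, 257 and 272 cells of 1 culture each.

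Those 10 cells, which were picked by their Rhox6 value so that no test applies, mostly held much Rhox5, with a median of 409.5 UMIs against 2 over all cells of day 4, and a range from 0 to 474. At least 10 UMIs of the naive markers Nanog, Esrrb, Zfp42, Klf4 and Tfcp2l1 were held by 5, 4, 6, 1 and 7 of the 10 cells, beside 139, 42, 52, 41 and 54 of all 272 cells of the day and 1, 2, 1, 0 and 7 of the 54 empty sites. For the formative markers Fgf5, Otx2 and Pou3f1 none of the 10 cells held as many, beside 69.5%, 38.2% and 38.2% of all cells and 4, 1 and 0 empty sites. Tex19.1 was at 10 UMIs or more in 3 of the 10 cells and 10.3% of all, and Dppa3 in 7 and 12.1%, with no such empty site. Of the other germline genes Sycp1 and Stk31 were so in 2 each (9.19% and 3.31% of all cells). Dazl, Ddx4 and Taf7l were so in 1 each (1.1%, 14.3% and 3.68%), and the remaining ones in none. Among the genes that oppose methylation, Tet1 was so in 5 (60.7% of all cells, 2 empty sites), and Tet2, Tet3 and Tdg in none. Of 96 Prdm14 UMIs on that day 91 lay in 2 of these cells. Of the 5 extraembryonic endoderm markers only Pdgfra was seen in the 10, in 1 cell with 9 UMIs. Of the 6 trophoblast markers Gata3, Plet1 and Ascl2 were at 10 UMIs or more in 1, 3 and 3 of the 10 cells, beside 5.15%, 6.25% and 4.41% of all cells and no empty site, and Cdx2, Elf5 and Hand1 were seen in none. The part of any cell type in the level of Rhox6 was not tested.

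The alleles of Rhox6 in single cells gave the same direction as in bulk. The share of B6 among its allele-specific UMIs began at 6.62% on day 0 (39 B6 and 550 Cast UMIs, exact 95% interval 4.75% to 8.94%), was 28.4%, 41.4% and 42.0% over the next 3 days, and reached 47.1% on day 4 (488 and 547 UMIs, 44.1% to 50.2%). At day 4 cells in which all of more than 5 allele-specific Xist UMIs came from Cast had 97 B6 and 32 Cast UMIs of Rhox6, a share of 75.2% (66.8% to 82.4%) over 43 cells. Cells with Xist from B6 alone had 12 B6 and 14 Cast UMIs, a share of 46.2% (26.6% to 66.6%) over 79 cells. At day 3 the Cast class again had the higher share, with 50 B6 and 7 Cast UMIs of Rhox6 over 38 cells (87.7%), beside 7 and 2 UMIs over 61 cells (77.8%) in the B6 class. At day 2 the order was the other way on very few UMIs, with 0 and 3 over 12 cells of the Cast class and 21 and 9 over 78 cells of the B6 class. Since few cells hold most of these UMIs, the intervals are too narrow for a statement about cells. For Rhox9 2.99% of UMIs could be assigned to an allele, beside 27.4% for Rhox6, so its share is given over all kept cells alone. It was 15.2% at day 3 (5 B6 and 28 Cast UMIs, exact 95% interval 5.11% to 31.9%), the other direction than in the bulk libraries of TX1072 that day, and 85.1% at day 4 (57 and 10 UMIs, 74.3% to 92.6%). On days 0, 1 and 2 there were 8, 6 and 22 B6 and 4, 2 and 14 Cast UMIs.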

How the data were processed

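The authors aligned bulk reads with STAR 2.5.2b to mm10 (GRCm38), assigned them to alleles at masked strain differences and counted uniquely aligned exonic reads per gene with featureCounts. The deposited values are raw counts, in total and per allele, and UMI counts for single cells. Strandedness of the counting was not given in the sources used here. TX1072 and the deletion lines were prepared with different kits, so levels were tested within TX1072 and within the deletion lines. Rows of ERCC spike-ins were left out and held a share of 0 of the bulk counts. Counts were tested with edgeR 4.0.16 in R 4.3.3 (TMM, quasi-likelihood, Benjamini-Hochberg adjustment at 0.05 over all genes) on genes that passed its filter on low counts, and allelic ratios on genes with at least 50 allele-specific counts. DESeq2 1.42.0, other scalings and filters, a replicate block and leaving out replicates were alternatives. Fits were tested on simulated data with 200 changed genes.

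The replicate numbers were taken to pair the samples because each replicate was differentiated on its own day. Deviations of same-numbered samples of a line on other days had a median r of 0.11 in TX1072 and 0.16 in the deletion lines. Other numbers had −0.06 and −0.1. That same-numbered samples of TXdXicB6 and TXdXicCast shared a day was not stated. Between these lines on the same day the median r was 0.19 for equal numbers and −0.08 for others. Where nothing says that cultures were separate, p-values measure only the spread between samples. The members and lists were chosen with earlier results of these data known. Named were the 3 genes, the 4 genes of a list with the highest level per length and the 5 genes most like each member. Single cells were those that the study retained, by its list of cells, from which doublets and empty sites had been removed. No doublet caller was run here.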

Additional observations from a re-analysis of the deposited data

Results flagged for a closer look

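The change in the log2 ratio of B6 over Cast counts of Rhox6 from day 1 to day 4 differed between TXdXicCast and TXdXicB6 by −1.41 (SE 0.41, edgeR adjusted p = 0.0432), a difference between groups that was tested as such. The change was 0.65 in TXdXicCast (adjusted p = 0.125) and 2.07 in TXdXicB6 (adjusted p = 5.8e-10). Over X-linked genes the median difference was −1.88. The call was lost with DESeq2 (adjusted p = 0.22), without replicate 1 (−1.07, adjusted p = 0.645) and without replicate 3 (−1.52, adjusted p = 0.187), and leaving out a replicate gave −1.65 to −1.07.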

How the results depend on the processing

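Of 1293 alternative values for 180 results, 1115 kept their direction and side of the threshold or moved by less than their spread, and none of the 22 that changed sign was called under either setting. Leaving out the TXdXicCast libraries of day 0, or the cell with the most UMIs, was chosen after seeing the data. Within each line, the calls of the total level of Rhox6 and Rhox9 from day 0 to day 4 and from day 1 to day 4 held under all alternatives run, while allelic calls were lost as given with the results.

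With the replicate block, the difference between the deletion lines at day 4 was called for Rhox5 (0.60), Rhox6 (0.84) and Rhox9 (0.75), and the number of genes called there went from 1156 to 1771. The block changed no other call on the total levels of the 3 genes than those given with the results, and it was not run on the allelic ratios, whose fit has a term for each library. Without a filter on low counts 14 results were called that had not been, among them the same 3 differences, at 0.55, 0.81 and 0.75. Leaving out a replicate gave 0.19 to 0.88 for Rhox5, 0.7 to 0.82 for Rhox9 and 0.67 to 0.96 for Rhox6, the last called without replicate 3. Between 287 and 459 genes were called in these fits. For the change from day 0 to day 4 the number of genes called went from 2968 to between 94 and 1793 when a replicate was left out. For the change from day 1 to day 4 it went from 151 to 359 with DESeq2, 418 without the filter, 288 with the block and 1 to 20 without a replicate. The cause was not tested, but fewer libraries were fitted where a replicate was left out.

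Values near 0 changed sign. For Rhox5 in TXdXicCast, day 3 against day 0 was 0.0072 with DESeq2, 0.0009 with its size factors, 0.02 with the block and −0.18 to 0.13 without a replicate. For Rhox6 between the lines at day 1 it was 0.0014 with DESeq2, 0.0069 with TMM factors from all genes, 0.0011 with DESeq2 size factors, 0.0044 without the filter, 0.0153 with the block, 0.01 without the TXdXicCast libraries of day 0 and −0.15 to 0.11 without a replicate. Without a replicate, Rhox5 between the lines ranged from −0.0934 to 0.18 at day 2, from −0.12 to 0.39 at day 3 and from −0.64 to 0.39 for the change from day 0 to day 4. Rhox6 at day 3 against day 0 ranged from −0.78 to 0.0265 in TXdXicB6, where it was called lower without replicate 3, and from −0.0932 to 0.38 in TXdXicCast, and Rhox9 between the lines at day 1 from −0.12 to 0.18. For the allelic ratio of Rhox9, the change from day 0 to day 4 ranged from −0.10 to 0.52 in TX1072, and day 4 in TXdXicCast was 0.0138 with DESeq2 and −0.17 to 0.28 without a replicate. Without changing sign, the fall of Rhox5 from day 0 to day 4 in TXdXicB6 ranged from −1.14 to −0.54 and the rise of the allelic ratio of Rhox9 there from 1.342 to 2.64, and both lost their call in the fits given with the results.

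In single cells at day 4, all deposited capture sites gave 334 CPM for Rhox5, 110 for Rhox6 and 76.6 for Rhox9. Cells thinned to 40000 UMIs gave 293 CPM for Rhox5 and shares of cells with a UMI of 46.7%, 16.9% and 14.7% for the 3 genes, and the size factors of the study gave 289 CPM for Rhox5 and 50.9 for Rhox9. Without the cell with the most UMIs of the gene the levels were 297.0, 55.2 and 41.0 CPM. The allelic readings of Rhox9 before day 3 rest on few allele-specific counts, and the reason for this was not tested.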
